A study of Mus musculus with 4 samples.

Results

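The data described here are the transcripts of the PDGF family in fracture callus, that is the ligand genes *Pdgfa*, *Pdgfb*, *Pdgfc* and *Pdgfd* and the receptor genes *Pdgfra* and *Pdgfrb*. These 6 genes, of 32285 in the deposited tables, were taken by their symbols, and all 6 are present. They were followed across marker-defined myeloid, endothelial, mural and mesenchymal cells in 4 single-cell RNA sequencing (scRNA-seq) libraries of mouse tibial fracture callus. Each library holds wild-type C57BL/6J mice that were 3 months old and, per the methods of the study, male. RA mice had arthritis brought on by K/BxN serum and control mice were given vehicle, and callus was taken at 4 or 7 days post fracture (dpf). This gave 1 library for each of control at 4 dpf, RA at 4 dpf, control at 7 dpf and RA at 7 dpf, each from 10000 loaded cells of pooled mice, so that no animal can be told from another. Cells were scraped along the periosteal surface and freed by collagenase, so the data describe the cells that survive this treatment.

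PDGF ligands are secreted dimers that pair receptor tyrosine kinases on the surface of the responding cell. PDGF-A and PDGF-C act mainly through PDGFRα and PDGF-D mainly through PDGFRβ, whereas PDGF-B binds both receptors. PDGF-A and PDGF-B are cleaved inside the cell by furin-type proteases, and PDGF-C and PDGF-D are released with a latent domain that has to be cut off outside the cell by proteases such as tissue or urokinase plasminogen activator. In growing vessels, PDGF-B from endothelial cells recruits pericytes that carry PDGFRβ, and PDGFRα is a widely used marker of fibroblasts and skeletal progenitors. PDGF is also a known mitogen and chemoattractant for periosteal and other mesenchymal cells in bone healing.

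In total 25479 of 34038 barcodes passed the filter of the study (4110 to 8223 per library), holding 83405494 to 156567619 unique molecular identifiers (UMIs, each standing for 1 captured transcript). Libraries shared 5 to 15 barcodes a pair among the kept cells. Clusters were named from marker genes, with the PDGF genes neither among the markers nor among the genes used for clustering. They gave 9629 myeloid, 2942 blood endothelial, 308 lymphatic endothelial, 831 mural and 8897 mesenchymal cells, the mural cells being the pericyte and smooth muscle coat of vessels. Within these lineages, a class called X-like has a marker score for X of at least 1 (the mean log2 level of the markers of X against all other cells), with markers of X among its leading genes. Clusters that miss either are unnamed and, like classes that share a name, are told apart by a leading gene. These names were rebuilt from markers, so a class may differ in its cells from a cluster of that name in the study. With 1 library per condition there is no test between conditions, and a library cannot be told apart from its condition. The 95% intervals given cover counting error only. Levels are UMIs of a gene per 1000000 UMIs (CPM) of the cell type in that library, and mean ± SD is over the 4 libraries (or those with at least 20 cells of the class), which are 4 conditions and not replicates. An exact sign-flip test over 4 libraries cannot reach 0.05, so differences between cell types are given by whether their ranges over the libraries overlap.

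**Figure D1:**
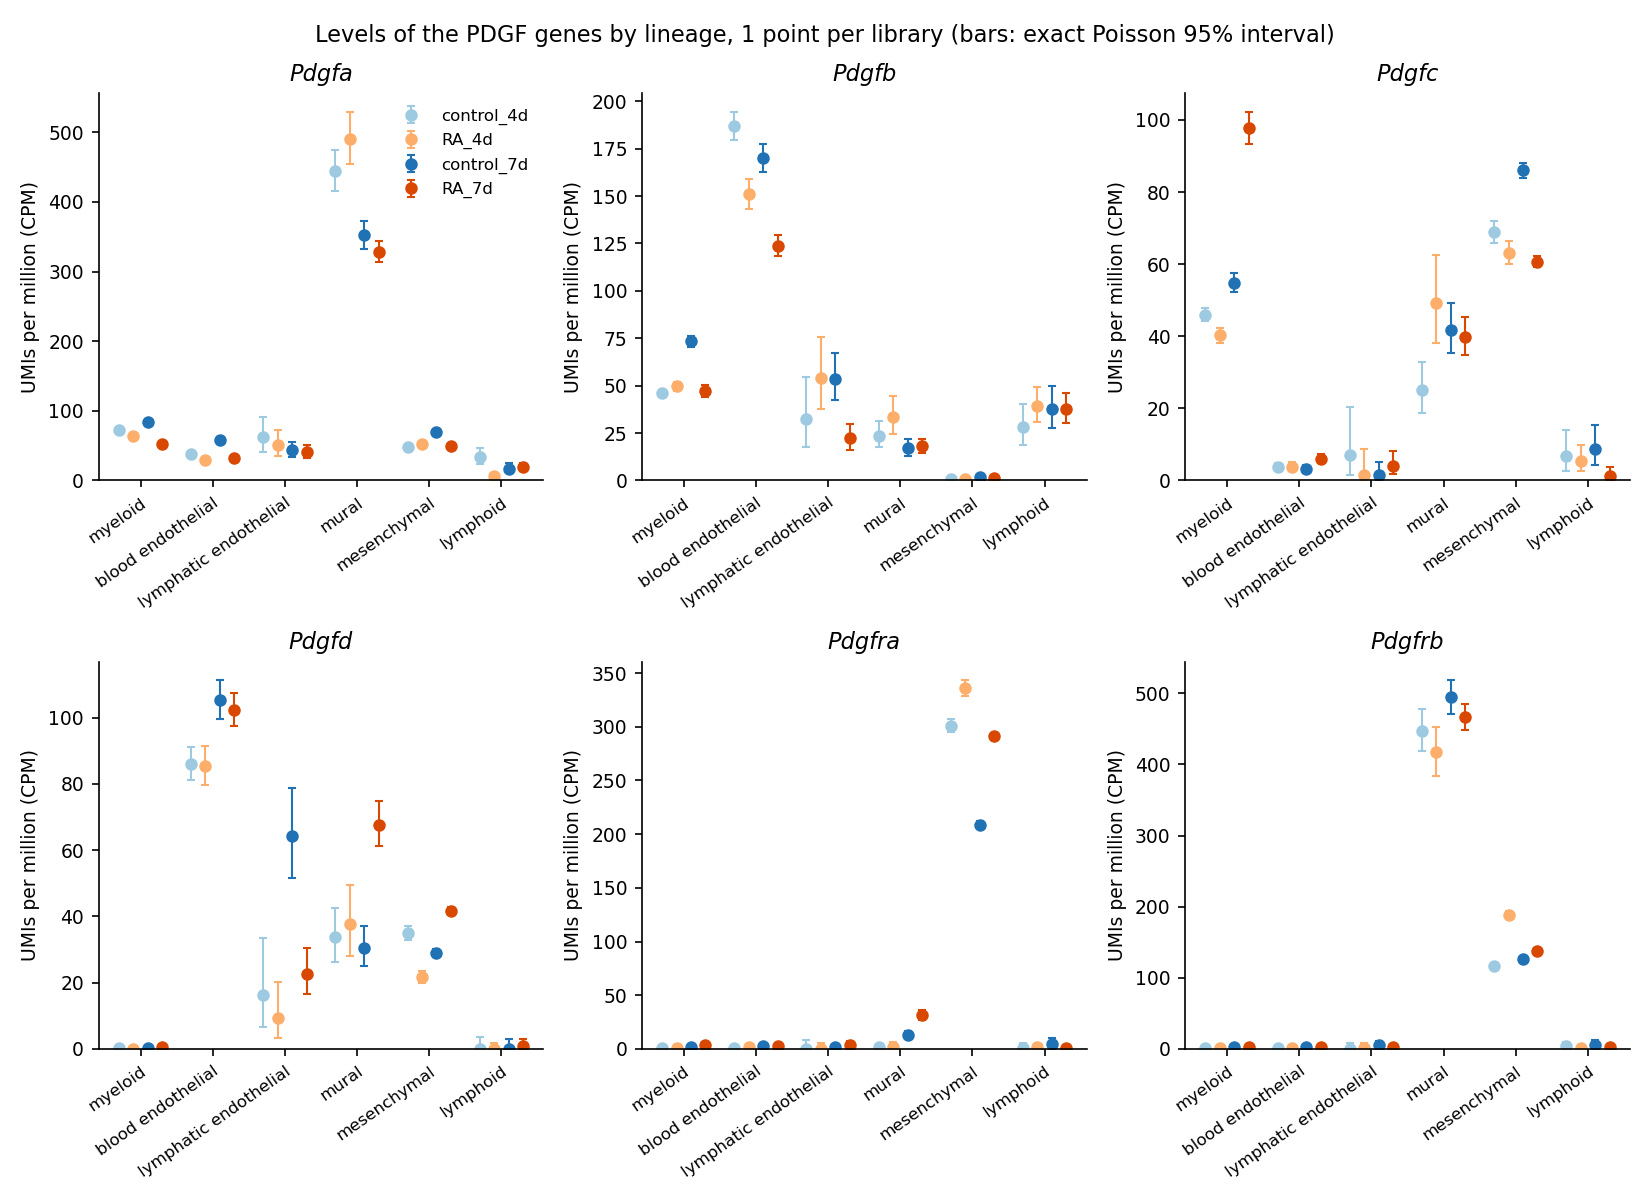
Levels of the 6 PDGF genes in CPM (vertical axis) by lineage (horizontal axis), 1 point per library with exact Poisson 95% intervals, and lymphoid cells as a comparison. *Pdgfa* and *Pdgfrb* were highest in mural cells, *Pdgfb* and *Pdgfd* in blood endothelial cells and *Pdgfra* in mesenchymal cells, in all 4 libraries, whereas the leading lineage of *Pdgfc* was mesenchymal in 3 libraries and myeloid in RA callus at 7 dpf.

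*Pdgfa* (ENSMUSG00000025856, chromosome 5, 138976014 to 138997370, minus strand, GRCm38), which encodes the PDGFRα ligand PDGF-A, was highest in mural cells. Its level there was 444 and 491 CPM in control and RA callus at 4 dpf, and 352 and 328 CPM at 7 dpf. The next lineage, myeloid cells, had 72.5 and 64.3 CPM in control and RA callus at 4 dpf, and 84.4 and 52.2 CPM at 7 dpf. The 2 ranges did not overlap, with means of 404 ± 76.7 CPM and 68.3 ± 13.6 CPM. In mesenchymal cells it was 48.0 and 51.7 CPM in control and RA callus at 4 dpf, and 69.7 and 49.2 CPM at 7 dpf. The ranges of myeloid, mesenchymal, lymphatic (40.4 to 62.7 CPM) and blood endothelial cells (30.0 to 57.6 CPM) overlapped between neighbours in this order. Within every library, however, myeloid cells lay above mesenchymal cells. Without doublets, both also lay above blood endothelial cells in every library. The latter then had 38.1 and 29.5 CPM in control and RA callus at 4 dpf, and 57.0 and 32.1 CPM at 7 dpf. Lymphatic endothelial cells changed place between libraries. Among the classes, smooth muscle-like cells (447 ± 84.3 CPM) and mural-like cells (359 ± 58.8 CPM) led, and the first was higher than the second in every library although their ranges overlapped. Far below them followed osteoclast-like cells (143 CPM), tenocyte-like cells (140.5 CPM) and arterial endothelial-like cells (98.1 CPM). Within the myeloid lineage the span was wide, down to 7.21 CPM in monocyte-like and 5.40 CPM in dendritic cell-like cells.

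In mural cells, the *Pdgfa* level gave a ratio of RA to control of 1.10 (0.999 to 1.22) at 4 dpf and 0.931 (0.866 to 1.00) at 7 dpf. At 7 dpf the RA library lay below the control library in myeloid, blood endothelial and mesenchymal cells, with intervals that leave out 1. The ratio was 0.619 (0.575 to 0.665) in myeloid cells, 0.555 (0.494 to 0.623) in blood endothelial cells and 0.706 (0.679 to 0.734) in mesenchymal cells. At 4 dpf these lineages were nearer to 1, with 0.887 (0.843 to 0.934), 0.785 (0.678 to 0.909) and 1.08 (0.997 to 1.16). All 6 myeloid classes with enough UMIs lay below 1 at 7 dpf (0.400 to 0.884). Of 4 blood endothelial classes, 3 lay below 1 and 1 above it (0.444 to 1.12), and the intervals of 2 span 1. The geometric mean of the blood endothelial class ratios was 0.636. The mesenchymal classes did not all lie on one side, since 6 of 8 lay below 1 whereas tenocyte-like cells at 1.57 (1.42 to 1.74) and chondrogenic-like cells at 1.38 (1.21 to 1.58) lay above it. Tenocyte-like cells also had the higher level in RA callus at 4 dpf, with a ratio of 1.39 (1.21 to 1.60). From 4 to 7 dpf, the mural level was lower at the later time in both conditions, with a ratio of 7 to 4 dpf of 0.793 (0.727 to 0.864) in control and 0.668 (0.612 to 0.730) in RA callus, comparisons that use the same 4 libraries as those of RA with control.

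*Pdgfb* (ENSMUSG00000000489, chromosome 15, 79995874 to 80014977, minus strand, GRCm38), which encodes the endothelial ligand for PDGFRβ on mural cells, was highest in blood endothelial cells. Its level there was 187 and 151 CPM in control and RA callus at 4 dpf, and 170.1 and 124 CPM at 7 dpf. Myeloid cells came next with 45.9 and 49.6 CPM in control and RA callus at 4 dpf, and 73.4 and 47.1 CPM at 7 dpf, without overlap of the ranges, and the level in lymphatic endothelial cells (22.2 to 54.2 CPM) overlapped that in myeloid cells. Lymphoid cells, taken as a comparison outside the 5 lineages, had 28.1 to 39.2 CPM. The receptor-bearing lineages held less, with 17.2 to 33.3 CPM in mural cells and at most 1.63 CPM in mesenchymal cells. Without doublets, smooth muscle-like cells had 41.2 and 52.5 CPM in control and RA callus at 4 dpf, and 31.0 and 25.8 CPM at 7 dpf. Mural-like cells had 5.34 to 8.27 CPM. Arterial (219 ± 34.3 CPM), cycling (204 ± 49.7 CPM) and capillary endothelial-like cells (199 ± 32.2 CPM) had overlapping ranges, and venular endothelial-like cells lay below all of them at 76.1 to 83.5 CPM. Outside the endothelium, osteoclast-like cells had the highest level, 149 and 116 CPM in control and RA callus at 4 dpf and 151 CPM in control callus at 7 dpf. RA callus at 7 dpf had under 20 of these cells and gave no value. In the macrophage classes, the Mmp12-led Arg1-high cells had 83.7 CPM and the resident macrophage-like cells 19.1 CPM.

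The level of *Pdgfb* in blood endothelial cells was lower in RA than in control callus at both times, with ratios of 0.808 (0.757 to 0.862) at 4 dpf and 0.728 (0.685 to 0.775) at 7 dpf. Capillary endothelial-like cells had 0.774 (0.708 to 0.846) and 0.775 (0.712 to 0.843), whereas venular endothelial-like cells had 1.01 (0.865 to 1.19) and 0.912 (0.793 to 1.05), with intervals that span 1. Venular endothelial-like cells, low in *Pdgfb*, were 35.5% of blood endothelial cells in control and 51.0% in RA callus at 7 dpf. Capillary endothelial-like cells were 46.1% and 36.6%. The geometric mean of the blood endothelial class ratios at 7 dpf was 0.832. The part of this mix in the lineage ratio was not tested. In myeloid cells the ratio was 1.08 (1.02 to 1.15) at 4 dpf and 0.642 (0.594 to 0.693) at 7 dpf. The myeloid classes differed at 7 dpf, as resident macrophage-like cells had 0.298 (0.219 to 0.399) whereas the Mmp12-led cells had 1.07 (0.902 to 1.26). Osteoclast-like cells, rich in *Pdgfb*, made up 3.98% of the myeloid cells of control and 0.642% of those of RA callus at 7 dpf. The geometric mean of the myeloid class ratios at 7 dpf was 0.669. It leaves out osteoclast-like cells, which were too few in RA callus, and is not the level at an equal class mix. In lymphatic endothelial cells the ratio at 7 dpf was 0.414 (0.278 to 0.609).

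*Pdgfc* (ENSMUSG00000028019, chromosome 3, 81036416 to 81214040, plus strand, GRCm38), which encodes a latent ligand of PDGFRα, was shared between mesenchymal, myeloid and mural cells. In mesenchymal cells it was 68.8 and 63.1 CPM in control and RA callus at 4 dpf, and 86.1 and 60.6 CPM at 7 dpf. Myeloid cells had 46.0 and 40.2 CPM in control and RA callus at 4 dpf, and 54.9 and 97.7 CPM at 7 dpf, and mural cells 25.0 and 49.2 CPM in control and RA callus at 4 dpf, and 41.8 and 39.9 CPM at 7 dpf. The myeloid range overlapped both others, whereas every mesenchymal value lay above every mural one. The leading lineage was mesenchymal in 3 libraries and myeloid in RA callus at 7 dpf. Blood endothelial (3.25 to 5.89 CPM) and lymphatic endothelial cells (1.40 to 6.97 CPM) were close to the lymphoid cells (1.27 to 8.64 CPM).

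Among the classes, resident macrophage-like cells, the macrophages marked by *Mrc1*, *Folr2* and *Cd163*, stood first. Their *Pdgfc* level was 147 and 164 CPM in control and RA callus at 4 dpf, and 169 and 273 CPM at 7 dpf. All 4 values lay above those of the next class, cycling mesenchymal cells (91.1 to 125 CPM). The Dlk1-led mesenchymal cells (106 ± 24.8 CPM) and committed mesenchymal progenitor-like cells (88.6 ± 16.3 CPM) followed, and the 2 fibroblast-like classes were low at 19.97 CPM (Cxcl14-led) and 7.67 CPM (Myoc-led). Within the myeloid lineage, *Pdgfc* and *Pdgfb* were thus high in different classes, since osteoclast-like cells had 1.11 CPM of *Pdgfc* and the Mmp12-led cells 8.88 CPM.

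In myeloid cells the ratio of RA to control for *Pdgfc* was 0.874 (0.819 to 0.933) at 4 dpf and 1.78 (1.67 to 1.90) at 7 dpf. Resident macrophage-like cells had 1.12 (1.03 to 1.21) and 1.62 (1.48 to 1.76), and Arg1-led cells 0.903 (0.774 to 1.05) and 1.58 (1.37 to 1.81). The resident macrophage-like cells were 17.1% of the myeloid cells in control and 22.9% in RA callus at 7 dpf. Of the 4 myeloid classes with at least 50 UMIs, 3 lay above 1 at 7 dpf, and the intervals of 2 of the 4 span 1. The geometric mean of the class ratios, classes with fewer UMIs included, was 0.864, on the other side of 1. It counts classes of few *Pdgfc* UMIs as much as the resident macrophage-like cells, and so is not the level at an equal class mix. In mesenchymal cells the ratio was 0.918 (0.858 to 0.982) at 4 dpf and 0.705 (0.681 to 0.730) at 7 dpf. Of 8 mesenchymal classes, 7 lay below 1 at 7 dpf, the lowest being the Myoc-led fibroblast-like cells at 0.348 (0.224 to 0.534) and the exception the chondrogenic-like cells at 1.14 (0.947 to 1.36). In mural cells the ratio was 1.97 (1.35 to 2.88) at 4 dpf and 0.954 (0.772 to 1.18) at 7 dpf. At 4 dpf only smooth muscle-like cells had enough UMIs, with 1.49 and an interval that spans 1. Mural-like cells then had 9 UMIs in control and 15 in RA callus. The ratio at 7 dpf pools classes on opposite sides of 1, with 0.329 (0.216 to 0.492) in mural-like and 1.45 (1.09 to 1.94) in smooth muscle-like cells. The geometric mean of these was 0.690.

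*Pdgfd* (ENSMUSG00000032006, chromosome 9, 6168584 to 6378850, plus strand, GRCm38), which encodes a latent ligand of PDGFRβ, was highest in blood endothelial cells. Its level there was 85.9 and 85.5 CPM in control and RA callus at 4 dpf, and 105 and 102 CPM at 7 dpf. No other lineage reached this range, with 30.6 to 67.7 CPM in mural, 21.6 to 41.7 CPM in mesenchymal and 9.30 to 64.2 CPM in lymphatic endothelial cells, and myeloid cells had at most 0.629 CPM. Arterial endothelial-like cells, marked by *Gja4*, *Gja5* and *Bmx*, had 234 and 238 CPM in control and RA callus at 4 dpf, and 274 and 284 CPM at 7 dpf. They lay above every other class in all 4 libraries. Capillary (88.1 ± 11.0 CPM) and venular endothelial-like cells (60.3 ± 11.6 CPM) held less. Without doublets, smooth muscle-like cells had 34.9 and 51.3 CPM in control and RA callus at 4 dpf, and 52.6 and 105 CPM at 7 dpf. The last value lay within the blood endothelial range without doublets (85.7 to 106 CPM), whereas mural-like cells had 15.8 to 41.5 CPM. In the mesenchymal lineage, fibroblast precursor-like cells were highest with 61.5 and 58.2 CPM in control and RA callus at 4 dpf, and 56.8 and 87.9 CPM at 7 dpf, above the tenocyte-like (25.2 to 48.0 CPM) and both fibroblast-like classes (24.8 to 33.5 CPM and 16.0 to 36.4 CPM).

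RA and control libraries were close for *Pdgfd* in blood endothelial cells, with ratios of 0.995 (0.909 to 1.09) at 4 dpf and 0.972 (0.903 to 1.05) at 7 dpf, whereas *Pdgfb* in the same cells was lower in RA callus. In mesenchymal cells the ratio was 0.618 (0.555 to 0.688) at 4 dpf and 1.44 (1.37 to 1.52) at 7 dpf. All 6 mesenchymal classes with enough UMIs lay below 1 at 4 dpf (0.444 to 0.946), and 7 of 8 lay above 1 at 7 dpf (0.964 to 2.07). The intervals of 2 of the 6 classes span 1 at 4 dpf, and those of 4 of the 8 at 7 dpf. The highest ratio at 7 dpf was that of the Myoc-led fibroblast-like class at 2.07 (1.59 to 2.72), followed by fibroblast precursor-like cells at 1.55 (1.37 to 1.76). The latter, highest in *Pdgfd*, were 8.01% of mesenchymal cells in control and 15.6% in RA callus at 7 dpf. The geometric mean of the mesenchymal class ratios at 7 dpf was 1.27. The part of this mix in the lineage ratio was not tested. In mural cells the ratio was 1.12 (0.766 to 1.62) at 4 dpf and 2.21 (1.78 to 2.76) at 7 dpf, with 1.92 (1.48 to 2.53) in smooth muscle-like and 2.29 (1.55 to 3.47) in mural-like cells at the later time. With a looser cell filter the mural ratio at 4 dpf was 1.69. In lymphatic endothelial cells at 7 dpf it was 0.355 (0.242 to 0.513), from 64.2 CPM in control and 22.8 CPM in RA callus.

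**Figure D2:**
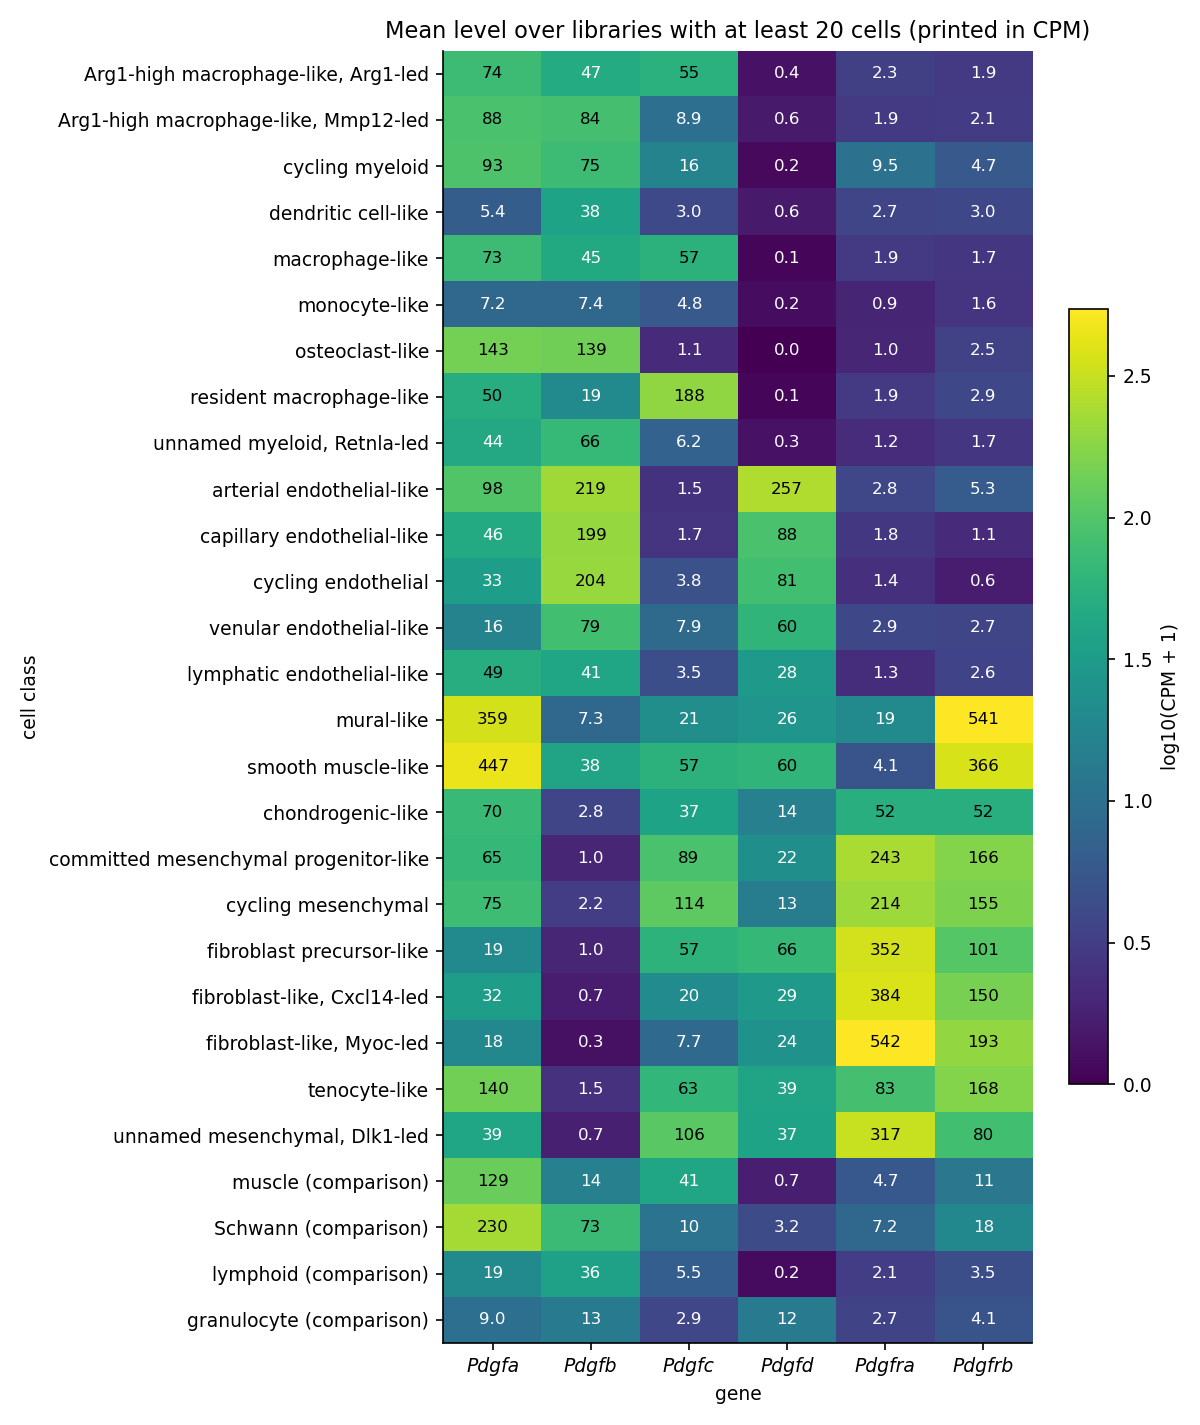
Mean level over the libraries in which a class has at least 20 cells, for 24 classes and 4 comparison cell types (vertical axis) and the 6 PDGF genes (horizontal axis). The colour is log10(CPM + 1) and the printed values are CPM, with *Pdgfd* leading in arterial endothelial-like, *Pdgfc* in resident macrophage-like and *Pdgfra* in Myoc-led fibroblast-like cells.

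*Pdgfra* (ENSMUSG00000029231, chromosome 5, 75152292 to 75198215, plus strand, GRCm38), which encodes the receptor for PDGF-A, PDGF-B and PDGF-C, was a gene of mesenchymal cells. Its level there was 301 and 336 CPM in control and RA callus at 4 dpf, and 209 and 291 CPM at 7 dpf. No other lineage overlapped this range, and myeloid, blood endothelial and lymphatic endothelial cells had at most 3.67 CPM. Among mesenchymal classes the Myoc-led fibroblast-like cells were highest, with 611 and 584 CPM in control and RA callus at 4 dpf, and 443 and 532 CPM at 7 dpf. The Cxcl14-led fibroblast-like (384 ± 79.4 CPM), fibroblast precursor-like (352 ± 57.9 CPM) and Dlk1-led cells (317 ± 65.4 CPM) followed, then committed mesenchymal progenitor-like (243 ± 37.8 CPM) and cycling mesenchymal cells (214 ± 31.6 CPM). Tenocyte-like cells lay below all of these, at 68.7 and 40.0 CPM in control and RA callus at 4 dpf, and 113 and 111 CPM at 7 dpf. Chondrogenic-like cells, with enough cells at 7 dpf only, had 40.4 CPM in control and 64.2 CPM in RA callus. The order thus ran from fibroblast-like classes down to the skeletal and tendon classes.

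The ratio for *Pdgfra* in mesenchymal cells was 1.12 (1.08 to 1.15) at 4 dpf and 1.40 (1.37 to 1.42) at 7 dpf. At 7 dpf, 7 of 8 classes lay above 1 (0.983 to 1.59), among them committed mesenchymal progenitor-like cells at 1.42 (1.37 to 1.48). At 4 dpf the classes were mixed, from 0.582 (0.442 to 0.759) in tenocyte-like to 1.40 (1.30 to 1.51) in Dlk1-led cells. Myoc-led cells, the class with the highest level, were 6.86% of mesenchymal cells in control and 11.4% in RA callus at 7 dpf. The geometric mean of the class ratios at 7 dpf was 1.22. From 4 to 7 dpf the level was lower in both conditions, with ratios of 7 to 4 dpf of 0.693 (0.675 to 0.711) in control and 0.867 (0.846 to 0.889) in RA callus. The size of this depended on the processing, above all in RA callus. A looser cell filter gave 0.831 in control and 0.985 in RA callus, and the geometric mean of the class ratios 0.870 and 0.985. Mural cells had 1.92 and 2.17 CPM in control and RA callus at 4 dpf, and 12.6 and 31.5 CPM at 7 dpf. The ratio of 2.50 (1.79 to 3.56) at 7 dpf was 1.08 (0.628 to 1.90) once the cells that Scrublet calls doublets were left out. At 7 dpf these were 13 of 125 mural-like cells in control and 22 of 206 in RA callus. Of smooth muscle-like cells they were 0 of 116 in control and 11 of 213 in RA callus. Without called doublets the mural level was 1.97 and 2.17 CPM in control and RA callus at 4 dpf, and 7.28 and 7.88 CPM at 7 dpf.

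*Pdgfrb* (ENSMUSG00000024620), which encodes the receptor for PDGF-B and PDGF-D, was highest in mural cells. Its level there was 448 and 417 CPM in control and RA callus at 4 dpf, and 494 and 466 CPM at 7 dpf. Mesenchymal cells followed with 116 and 188 CPM in control and RA callus at 4 dpf, and 126 and 138 CPM at 7 dpf. Neither range overlapped any other lineage, and the remaining lineages had at most 5.58 CPM. Mural-like cells (541 ± 34.1 CPM) lay above smooth muscle-like cells (366 ± 17.0 CPM) in every library, the opposite of the order for *Pdgfa*. The mesenchymal classes were closer together than for *Pdgfra*, with 193 ± 34.7 CPM in Myoc-led fibroblast-like, 168 ± 54.3 CPM in tenocyte-like and 166 ± 34.5 CPM in committed mesenchymal progenitor-like cells. By mean level, tenocyte-like cells, low in *Pdgfra*, were thus among the higher mesenchymal classes for *Pdgfrb*. Their spread over the libraries was wider than that of the other classes just named (SD 54.3 CPM beside 34.7 and 34.5 CPM). This place did not hold in each library, since in control callus at 7 dpf Cxcl14-led fibroblast-like and cycling mesenchymal cells also lay above them. The lowest were Dlk1-led (79.8 ± 28.5 CPM) and chondrogenic-like cells (52.4 CPM).

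In mural cells *Pdgfrb* had a ratio of 0.932 (0.838 to 1.03) at 4 dpf and 0.944 (0.888 to 1.00) at 7 dpf, with both intervals reaching 1 or close to it. In mesenchymal cells it was 1.62 (1.55 to 1.69) at 4 dpf and 1.09 (1.07 to 1.12) at 7 dpf. All 7 mesenchymal classes lay above 1 at 4 dpf (1.04 to 2.21), with the Dlk1-led cells at 2.21 (1.85 to 2.64) and tenocyte-like cells at 1.70 (1.49 to 1.93). At 7 dpf they ranged from 0.802 to 1.57, and committed mesenchymal progenitor-like cells lay below 1 at 0.804 (0.769 to 0.840). Of the 2 receptors, *Pdgfrb* thus showed the larger difference between RA and control mesenchymal cells at 4 dpf and *Pdgfra* the larger one at 7 dpf.

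**Figure D3:**
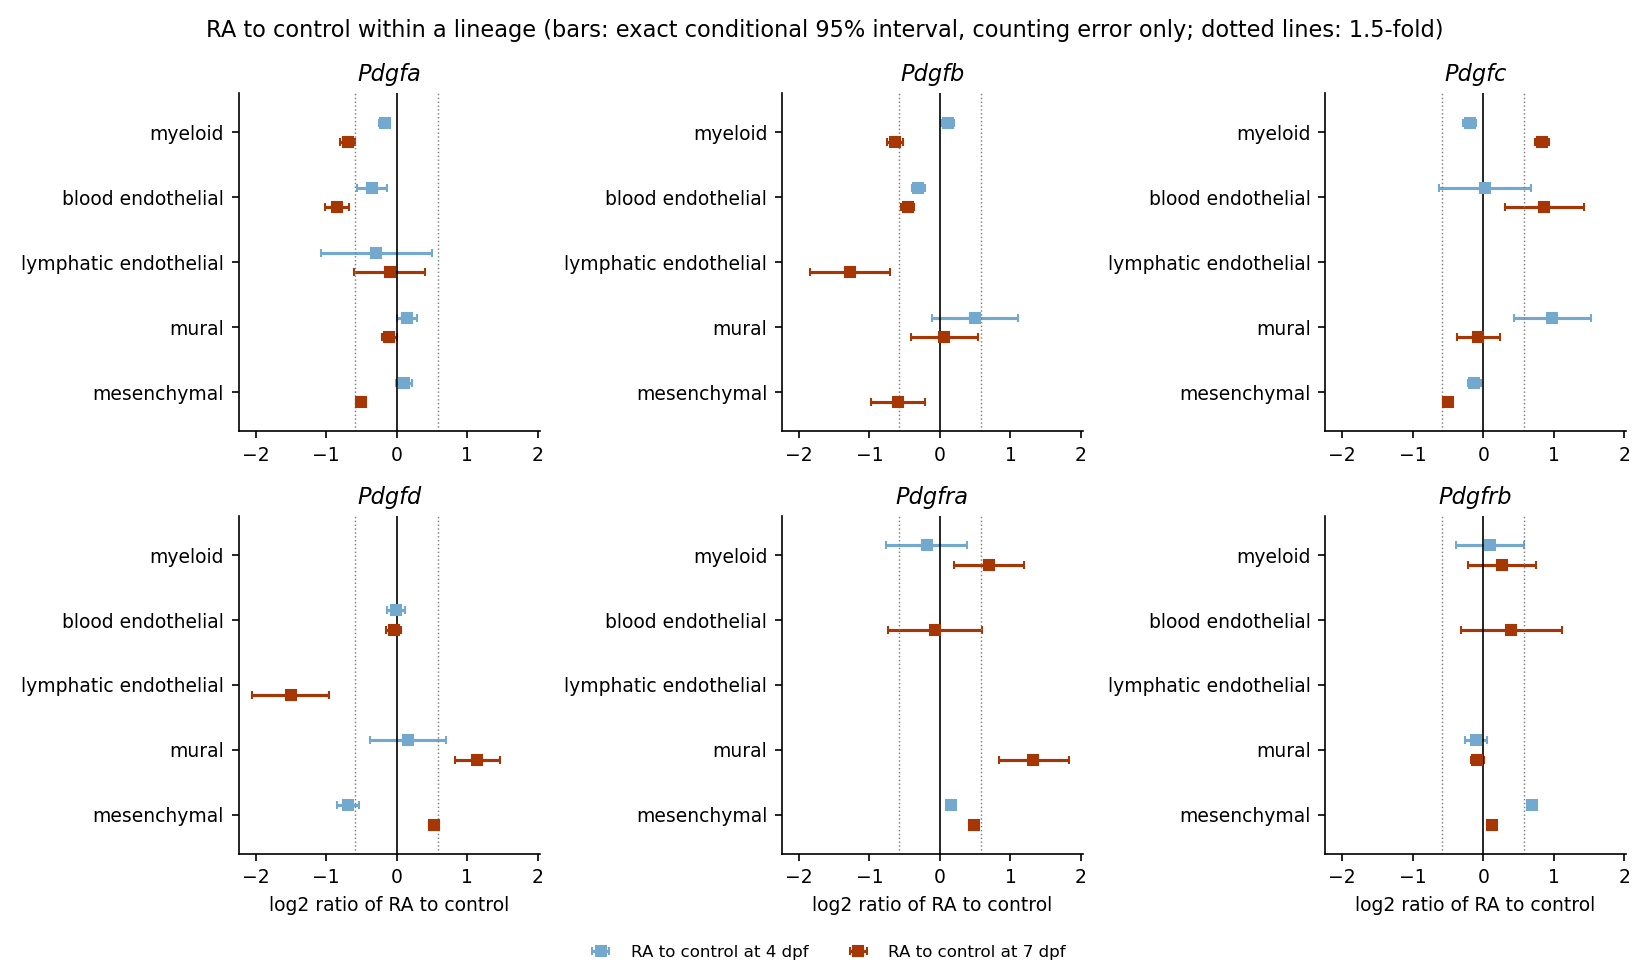
Log2 ratio of RA to control (horizontal axis) of each PDGF gene by lineage (vertical axis), in blue at 4 dpf and in brown at 7 dpf, with exact conditional 95% intervals for counting error. Pairs with fewer than 50 UMIs have no square and dotted lines mark 1.5-fold, with *Pdgfb* and *Pdgfc* in myeloid and *Pdgfd* in mesenchymal cells on opposite sides of 0 at the 2 times.

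Of the 6 genes in 5 lineages, 20 pairs had at least 50 UMIs over both libraries at 4 dpf and 26 at 7 dpf. At 4 dpf, 3 of 20 pairs differed by at least 1.5-fold between RA and control, namely *Pdgfc* in mural and *Pdgfrb* in mesenchymal cells (higher in RA) and *Pdgfd* in mesenchymal cells (lower in RA). Over all genes with this depth, 8.14% passed 1.5-fold in myeloid, 6.41% in blood endothelial, 22.0% in lymphatic endothelial, 12.3% in mural and 11.7% in mesenchymal cells. At 7 dpf, 11 of 26 pairs passed, 5 higher and 6 lower in RA, against 12.3%, 11.8%, 12.1%, 10.1% and 17.6% of all genes in the same order of lineages. The 6 lower pairs were *Pdgfa* and *Pdgfb* in myeloid, *Pdgfa* in blood endothelial, *Pdgfb* and *Pdgfd* in lymphatic endothelial and *Pdgfb* in mesenchymal cells, the last at 1.63 CPM or less. The 5 higher pairs were *Pdgfc* in myeloid and blood endothelial, *Pdgfd* in mural, and *Pdgfra* in myeloid and mural cells, of which *Pdgfc* in blood endothelial and *Pdgfra* in myeloid cells were at 5.89 CPM or less. Without doublets both *Pdgfra* ratios were below 1.5, with 1.30 (0.903 to 1.87) in myeloid and 1.08 (0.628 to 1.90) in mural cells, whose intervals span 1.

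Between 4 and 7 dpf, in comparisons that share these libraries, 9 of 24 pairs in control callus were at least 1.5-fold higher at 7 dpf and 0 were lower, against 9.22%, 8.21%, 29.9%, 12.6% and 18.0% of all genes in either direction in myeloid, blood endothelial, lymphatic endothelial, mural and mesenchymal cells. In RA callus 10 of 26 pairs were higher and 2 lower, against 22.0%, 9.81%, 17.5%, 16.3% and 17.3%. Some of the higher pairs were at low levels. Without doublets, *Pdgfra* in control callus went from 1.31 to 2.27 CPM in myeloid and from 1.33 to 2.88 CPM in blood endothelial cells. *Pdgfb* in mesenchymal cells of control callus went from 0.780 to 1.25 CPM, and *Pdgfrb* in myeloid cells from 1.67 to 2.70 CPM. In RA callus, *Pdgfra* in mural cells went from 2.17 to 7.88 CPM. In myeloid cells of RA callus, *Pdgfra* went from 1.15 to 2.95 CPM and *Pdgfrb* from 1.78 to 3.00 CPM. In blood endothelial cells of RA callus, *Pdgfra* went from 1.88 to 2.89 CPM and *Pdgfrb* from 1.46 to 2.89 CPM. *Pdgfc* there went from 3.76 to 5.78 CPM. Called doublets were 0.969 and 2.70% of kept cells at 4 and 7 dpf in control callus, and 0.876 and 3.60% in RA callus. Among pairs of high level, *Pdgfb* in myeloid cells had 1.60 (1.51 to 1.69) in control and 0.950 (0.876 to 1.03) in RA callus, and *Pdgfc* in myeloid cells 1.19 (1.12 to 1.27) and 2.43 (2.27 to 2.60). The geometric mean of the myeloid class ratios of *Pdgfc* was 1.93 in control and 1.63 in RA callus, in the other order. It counts classes of few *Pdgfc* UMIs as much as the rest. *Pdgfd* in mesenchymal cells had 0.829 (0.770 to 0.892) in control and 1.93 (1.76 to 2.12) in RA callus, and in mural cells 0.910 (0.667 to 1.25) and 1.80 (1.34 to 2.45). The mural classes lay on opposite sides of 1 in control callus, with 0.488 (0.296 to 0.802) in mural-like and 1.53 (1.01 to 2.38) in smooth muscle-like cells. In blood endothelial cells, *Pdgfd* had 1.23 (1.13 to 1.33) and 1.20 (1.10 to 1.30), with overlapping intervals in control and RA callus.

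A lineage can hold most transcripts of a gene through a high level or through many cells. Of all *Pdgfa* UMIs in kept cells, myeloid cells held 49.9 and 46.9% in control and RA callus at 4 dpf, and 24.0 and 10.3% at 7 dpf, whereas mesenchymal cells held 18.3 and 24.4% in control and RA callus at 4 dpf, and 48.0 and 51.0% at 7 dpf. Myeloid cells were thus the largest source of *Pdgfa* at 4 dpf and mesenchymal cells at 7 dpf. Mural cells, with the highest level but few cells, held 11.9 and 13.5% in control and RA callus at 4 dpf, and 10.7 and 19.6% at 7 dpf. For *Pdgfb*, blood endothelial cells held 47.6 and 40.3% in control and RA callus at 4 dpf, and 40.7 and 54.3% at 7 dpf, and myeloid cells 45.9 and 50.2% in control and RA callus at 4 dpf, and 46.5 and 25.0% at 7 dpf. Myeloid cells thus held the larger share of *Pdgfb* in RA callus at 4 dpf and control callus at 7 dpf, and blood endothelial cells in the other two libraries. Like *Pdgfa*, the 2 latent ligands had more of their transcripts in mesenchymal cells at 7 than at 4 dpf. For *Pdgfc*, mesenchymal cells held 42.2 and 46.7% in control and RA callus at 4 dpf, and 73.2 and 70.2% at 7 dpf, and myeloid cells 50.9 and 45.9% in control and RA callus at 4 dpf, and 19.3 and 21.6% at 7 dpf. For *Pdgfd*, blood endothelial cells held 49.5 and 56.5% in control and RA callus at 4 dpf, and 32.9 and 25.1% at 7 dpf, and mesenchymal cells 43.9 and 35.1% in control and RA callus at 4 dpf, and 58.1 and 64.7% at 7 dpf. The receptors had one main holder each. Of the *Pdgfra* UMIs, mesenchymal cells held 96.9 and 98.0% in control and RA callus at 4 dpf, and 95.9 and 95.5% at 7 dpf. Of the *Pdgfrb* UMIs they held 75.2 and 85.5% in control and RA callus at 4 dpf, and 81.5 and 80.8% at 7 dpf, with most of the rest in mural cells (20.3%, 11.1%, 14.1%, 15.7% in the same order). These shares depend on the number of cells captured, and fewer cells of a lineage in the tissue cannot be told apart from fewer that were captured. Myeloid cells were 60.3% and 52.5% of kept cells at 4 dpf in control and RA callus and 34.1% and 18.9% at 7 dpf. Mesenchymal cells were 17.8% and 19.3% at 4 dpf in control and RA callus and 40.8% and 48.6% at 7 dpf.

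**Figure D4:**
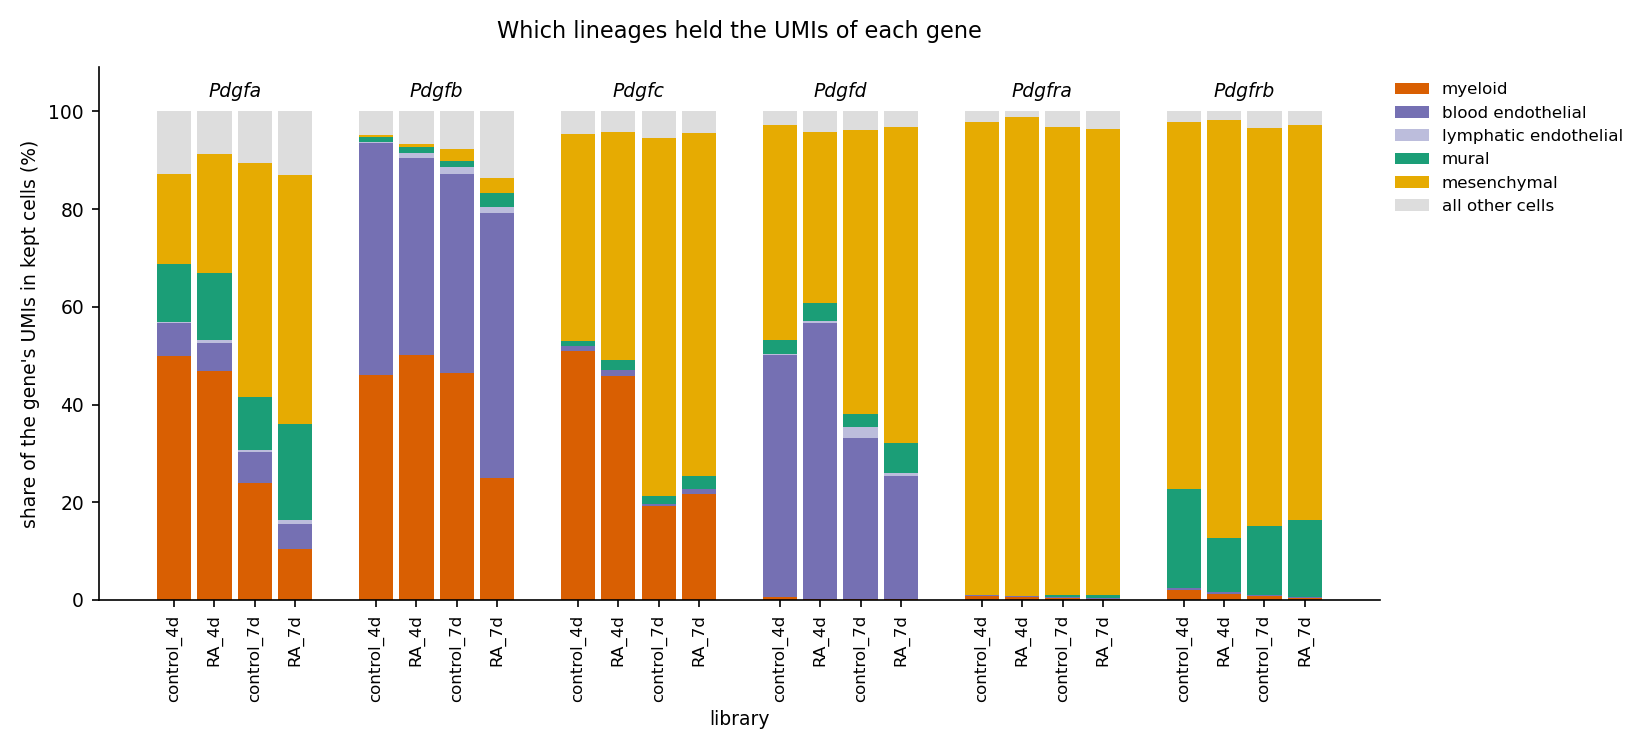
Share of the UMIs of each PDGF gene in kept cells (vertical axis, %) held by each lineage, with 1 stacked bar per gene and library (horizontal axis). *Pdgfa*, *Pdgfb* and *Pdgfc* were drawn in large part from myeloid cells at 4 dpf, and *Pdgfra* came almost wholly from mesenchymal cells in every library.

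The share of cells with at least 1 UMI was taken with each cell thinned to 4000 UMIs, which removes the difference in depth between cell types (median 12845 UMIs in myeloid, 15732 in blood endothelial, 12977 in mural, 25483 in mesenchymal and 7524.5 in lymphoid cells) and leaves out no kept cell. Over the 4 libraries, *Pdgfa* was found in 71.6% (68.4 to 74.6%) of mural cells and in 3.31% of lymphoid cells, which give a background share. *Pdgfb* was found in 40.1% (38.3 to 41.9%) of blood endothelial and 39.1% of osteoclast-like cells, in 12.0% of lymphoid and in 0.495% of mesenchymal cells. Since the mesenchymal share lies far below the lymphoid one, the lymphoid *Pdgfb* share was not a background common to all cell types. *Pdgfc* was found in 43.4% (41.1 to 45.7%) of resident macrophage-like and 19.1% (18.3 to 19.9%) of mesenchymal cells, with 1.24% in lymphoid cells. *Pdgfd* was found in 56.4% (50.7 to 62.0%) of arterial endothelial-like cells and in 0.138% of lymphoid cells. Without thinning, the shares were 92.9% for *Pdgfa* in mural, 75.5% for *Pdgfb* in blood endothelial, 52.8% for *Pdgfc* in mesenchymal and 84.0% for *Pdgfd* in arterial endothelial-like cells, so a cell without a UMI at this depth cannot be called free of the transcript.

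Of the receptors, *Pdgfra* was found in 58.6% (57.5 to 59.6%) of mesenchymal cells and *Pdgfrb* in 79.4% (76.5 to 82.1%) of mural and 38.7% (37.7 to 39.7%) of mesenchymal cells, against 1.10% and 1.24% of lymphoid cells. Unthinned, the shares were 89.9%, 98.0% and 84.3%. The shares that follow are again of thinned cells and depend on this depth. A cell counted with *Pdgfra* alone, *Pdgfrb* alone or neither thus cannot be called free of the missing transcript. At 4 dpf, 19.96 and 30.6% of mesenchymal cells in control and RA callus had UMIs of both receptor genes. At 7 dpf these shares were 20.1 and 26.9%. RA callus had the higher share at both times. The Myoc-led fibroblast-like cells had the largest share with both (45.0%), followed by Cxcl14-led (29.8%) and committed mesenchymal progenitor-like cells (25.3%). Mural-like (82.5%) and smooth muscle-like cells (71.6%) mostly had *Pdgfrb* alone. Tenocyte-like cells had *Pdgfrb* alone in 35.2% and *Pdgfra* alone in 13.8%, and chondrogenic-like cells had neither in 70.3%.

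**Figure D5:**
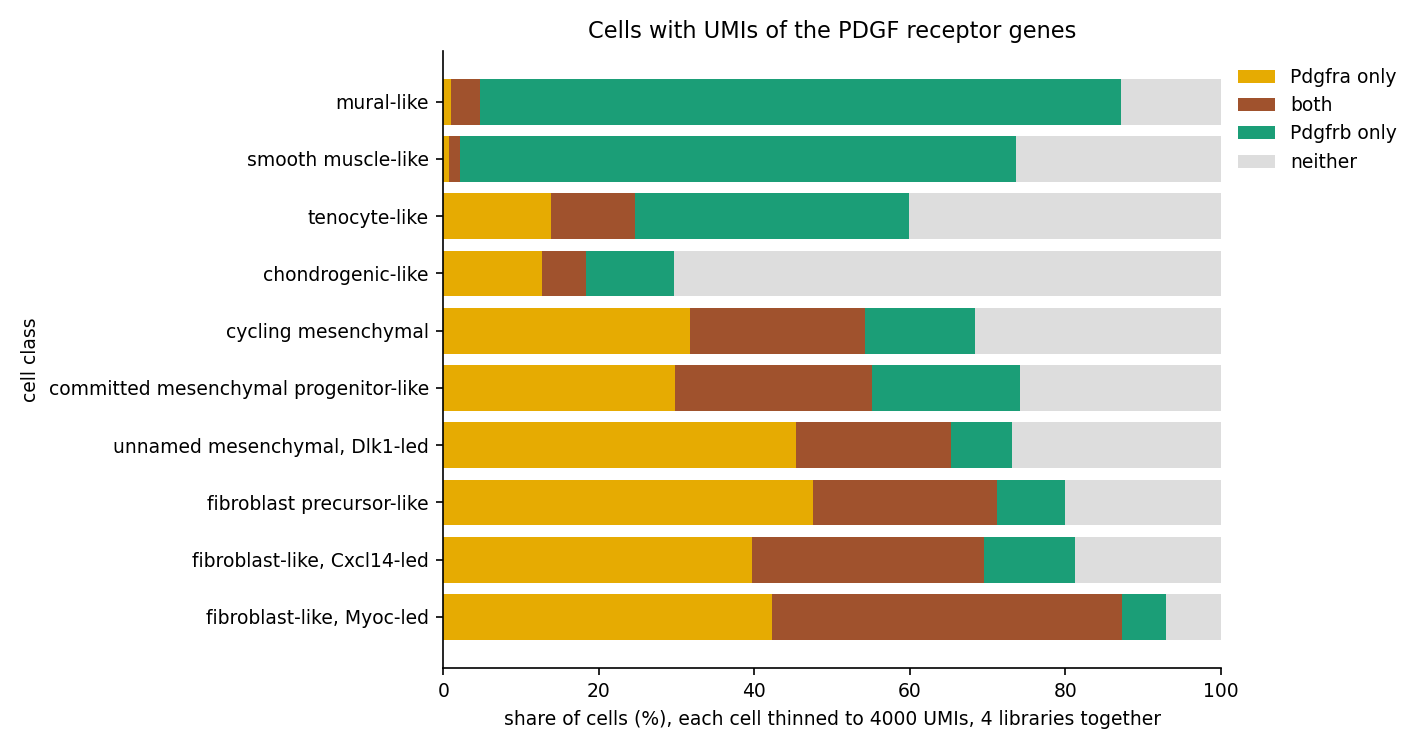
Share of cells (horizontal axis, %, each cell thinned to 4000 UMIs, 4 libraries together) with UMIs of *Pdgfra* only, of both receptor genes, of *Pdgfrb* only or of neither, in the mural and mesenchymal classes (vertical axis). Mural classes had almost only *Pdgfrb*, and the share with both was largest in Myoc-led fibroblast-like cells.

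Genes that act on PDGF ligands or downstream of the receptors were followed in mesenchymal cells, the lineage with most receptor transcripts, as 5 lists. Of 6 measured genes for activation and processing of the ligands, 0 were at least 1.5-fold higher and 1 lower in RA callus at 4 dpf, and 2 higher and 0 lower at 7 dpf, with median log2 ratios of 0.06 and 0.44 beside 0.04 and -0.04 over all genes. The shares of all genes past 1.5-fold were those given above for mesenchymal cells (11.7% and 17.6%). The plasminogen activators, which can cut latent PDGF-C and PDGF-D, had ratios at 7 dpf of 1.28 (1.25 to 1.31) for *Plat* (tissue type) and 1.53 (1.44 to 1.62) for *Plau* (urokinase type), with 0.768 and 0.986 at 4 dpf. The proprotein convertases were split at 7 dpf, with 0.746 for *Furin*, 1.44 for *Pcsk5* and 1.61 for *Pcsk6*. At 4 dpf *Pcsk6* was the gene past 1.5-fold, at 0.361 (0.327 to 0.398).

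Of 10 genes for binding and retention of PDGF outside the cell, 1 was higher and 0 lower at 4 dpf, and 1 was higher and 2 lower at 7 dpf (median log2 ratios 0.01 and 0.01). Over all genes, 11.7% and 17.6% passed 1.5-fold in either direction at the 2 times. The 2 lower genes were *Cspg4*, the NG2 proteoglycan that binds PDGF-A, at 0.508 (0.485 to 0.532), and *Thbs1*, thrombospondin 1, at 0.650 (0.637 to 0.664). The higher one at both times was *A2m*, which encodes the PDGF-binding protein alpha-2-macroglobulin and was named after its values were seen, at 2.68 CPM or less. *Nrp2* (0.709), *Pdgfrl* (0.733) and *Lrp1* (1.31), which encode a co-receptor, a receptor-like protein and an endocytic receptor, did not pass 1.5-fold at 7 dpf. Of 16 genes for signalling next to the receptor, 0 passed 1.5-fold at 4 dpf and 0 at 7 dpf (medians 0.12 and 0.11), and the furthest from 1 at 7 dpf was *Pik3r1*, the regulatory subunit of PI3-kinase, at 1.35 (1.30 to 1.39). The others named by the same rule were *Gab1* (0.808), *Nck2* (0.829), *Stat5b* (1.22) and *Stat3* (1.17).

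Of 11 negative regulators, 0 passed 1.5-fold at 4 dpf, and at 7 dpf *Ptprj*, a receptor phosphatase that dephosphorylates PDGFRβ, was higher at 1.65 (1.60 to 1.70) and the adaptor *Dok1* lower at 0.616 (0.579 to 0.657) (medians 0.09 and 0.18). Over all genes, 11.7% and 17.6% passed in either direction at the 2 times. *Ptprj* was on the other side of 1 at 4 dpf, at 0.747 (0.705 to 0.791). The feedback inhibitors of the ERK cascade *Spry2* (1.42), *Spry1* (1.31) and *Dusp6* (0.736) did not pass 1.5-fold at 7 dpf. Of 10 genes known to be induced by PDGF in cultured fibroblasts, 1 was higher at 4 dpf and 4 were higher at 7 dpf. At the 2 times 0 and 0 were lower, beside 11.7% and 17.6% of all genes in either direction. The medians were 0.27 and 0.53, beside 0.04 and -0.04 over all genes. The higher genes were the early-response transcription factor gene *Egr1* at both times, with 1.76 (1.71 to 1.82) at 4 dpf and 1.69 (1.65 to 1.72) at 7 dpf. At 7 dpf they were also the early-response genes *Junb* at 1.75 (1.73 to 1.78) and *Myc* at 1.60 (1.54 to 1.66) and the chemokine gene *Cxcl1* at 1.61 (1.59 to 1.64), and *Ccl2* had 1.48 (1.45 to 1.52). *Egr1* had 1.87 (1.75 to 1.99) and 3.01 (2.80 to 3.24) in myeloid cells at the 2 times. In mural cells it was 1.52 (1.31 to 1.75) and 1.59 (1.46 to 1.74), and in blood endothelial cells 1.26 (1.15 to 1.39) and 1.17 (1.08 to 1.27). Whether PDGF had a part in any of these ratios was not tested.

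In the other lineages the lists were mixed. In mural cells at 4 dpf, 3 of 9 negative regulators were at least 1.5-fold higher in RA callus and 0 lower, beside 12.3% of all genes in either direction, namely *Cblb*, *Ptprj* and *Rasa1* at 1.74, 1.64 and 1.70. At 7 dpf none of 11 passed in either direction. The hyaluronan synthase gene *Has2*, of the induced list, had 0.225 (0.115 to 0.405) at 4 dpf and 1.98 (1.53 to 2.58) at 7 dpf in mural cells. In blood endothelial cells at most 1 gene of any list passed in each direction at either time. In myeloid cells the largest count was 4 of 9 genes for binding and retention lower at 4 dpf, beside 8.14% of all genes in either direction, namely *Sparc*, *Hspg2*, *Sdc2* and *Pdgfrl*, of which the highest level in control callus was 41.5 CPM (*Sparc*). Apart from *Ptprj*, the genes named in these lineages were picked after their values were seen.

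Across 29 classes and comparison cell types, the Pearson r of log2(CPM + 1) was taken between each PDGF gene and 11241 genes, as a description without a p, since the points share libraries. *Pdgfra* was most like *Mfap5* (r = 0.98), then *F3*, *Tspan11*, *Lum* and *Sfrp2* (down to r = 0.97), which are known in large part as genes of fibroblasts and their matrix. *Pdgfrb* was most like *Cacna1c* (r = 0.97), an L-type calcium channel gene, then *Kcne4*, *Dzip1l*, *Vasn* and *Ndufa4l2* (down to 0.95). *Mfap5*, *Lum* and *Ndufa4l2* are also naming markers here, so their likeness to a receptor is not independent of the naming. *Pdgfd* was most like *Mast4* (r = 0.94), then *Fam13c*, *Mtmr11*, *Gm11476* and *Tspan9* (down to 0.92), and *Pdgfb* was most like *Slc12a7* (r = 0.87), then *Nav2*, *Parvb*, *Mtln* and *Ubxn1* (down to 0.83). The 2 remaining ligands had no close partner, with *Snrnp27* (r = 0.81) first for *Pdgfa*, then *Fance*, *Drap1*, *1700021F05Rik* and *Prkaca* (down to 0.78), and *Wls* (r = 0.81), a gene for Wnt secretion, first for *Pdgfc*, then *Rnft1*, *Enpp1*, *Bhlhe41* and *Rac3* (down to 0.79). Among the PDGF genes themselves, the receptors were most alike (r = 0.79), and *Pdgfb* ran opposite to both (r = -0.76 with *Pdgfra* and -0.73 with *Pdgfrb*).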

How the data were processed

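Single cells of fracture callus from 4 libraries (control and RA at 4 and 7 dpf) were sequenced with a 10x 3′ kit. The authors deposited raw UMI counts per gene and cell, made with Cell Ranger 7.0.1 on mm10 per the submitters' processing notes, and every deposited value is a whole number. The labels give pools of 4 mice and the methods of the study pools of 3, so the number of mice per library is not settled here. The 6 genes, the marker lists and the pathway lists were chosen with earlier results of these data known.

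Cells with 4000 to 50000 UMIs, 2000 to 7000 features and at most 8% mitochondrial UMIs were kept, which is the filter of the study. Libraries were integrated in Seurat 5.3.0 (R 4.3.3) by canonical correlation analysis on 2000 variable genes, without the PDGF genes and pathway lists, and clustered by Louvain at resolution 1 on 15 dimensions, giving 32 clusters. A cluster took the lineage of its best marker list (score of at least 0.5, pseudocount 10 CPM). It took a name with a score of at least 1, at least 3 detected markers and at least 2 own markers among its 20 leading genes, limits chosen after the clusters were seen. Scrublet in scanpy 1.11.5 called 592 doublets (2.32%), which were kept, and 2 clusters with over 30% of them (278 and 181 cells) stayed unnamed. UMIs were summed per class and library in Python 3.11.15 (pandas 2.3.3, scipy 1.17.1, numpy 2.4.6, matplotlib 3.10.9). Intervals are exact Poisson for CPM, exact conditional for ratios and Clopper-Pearson for shares. They cover counting error only, and the ratio and likeness steps were tested on simulated data. Ratios needed 20 cells in both libraries and 50 UMIs over both. A ratio with classes weighted equally is the geometric mean of the class ratios. It takes classes with 20 cells and any UMIs of the gene in both libraries. Gene positions are from the GRCm38 annotation.

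The text names the 6 PDGF genes, the class markers, and for each pathway list the 5 genes whose ratio lay furthest from 1 in mesenchymal cells at 7 dpf, provided the higher library had 20 CPM or more. It also names the 5 genes most like each PDGF gene with at least 20 CPM in the highest class, and says where it names others. Alternatives were a looser cell filter (at least 1000 UMIs, at least 500 features, at most 15% mitochondrial), doublets left out, no integration, resolutions 0.5 and 2, PDGF genes kept for clustering, TMM scaling, equal weight of classes or of cells, a minimum of 10 UMIs, thinning to 10000 UMIs or none, log2(CPM + 10) and Spearman's rho.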

Additional observations from a re-analysis of the deposited data

Results flagged for a closer look

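The ratio of RA to control lay on opposite sides of 1 at the 2 times for *Pdgfb* in myeloid cells (1.08 at 4 dpf and 0.642 at 7 dpf), for *Pdgfc* in myeloid cells (0.874 and 1.78) and for *Pdgfd* in mesenchymal cells (0.618 and 1.44). In each case both counting intervals leave out 1, but the geometric mean of the class ratios gave other myeloid patterns. By that mean, *Pdgfb* in myeloid cells lay below 1 at both times (0.936 and 0.669). *Pdgfc* in myeloid cells lay on the other side of 1 at each time (1.09 and 0.864). That mean counts classes of few UMIs as much as the rest. With 1 library per condition and time, the difference between the times was not tested.

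PDGF transcripts were also present outside the 5 lineages, above the levels in lymphoid cells (18.9 CPM of *Pdgfa* and 5.50 CPM of *Pdgfc*, means over libraries) and granulocytes (8.96 and 2.85 CPM). Schwann cells, the glia of peripheral nerve, had a mean of 229.9 CPM of *Pdgfa* (179 to 259 CPM), and muscle cells had 129 CPM of *Pdgfa* (108 to 160 CPM) and 40.9 CPM of *Pdgfc*.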

How the results depend on the processing

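No paired analysis was possible because there is 1 library per condition, so no replicate could be left out either, and library, pool and condition cannot be told apart. Of 64 lineage ratios whose counting interval leaves out 1, recomputed under 9 settings, 570 of 576 values stayed on the same side of 1 and 559 stayed within 1.5-fold of the value given. For the others named here the cause was not tested. Depth limits low genes, since 3 UMIs or fewer in a class are near the counting floor, and the ratios of *Pdgfb* in mesenchymal cells and of *Pdgfra* in mural cells rest on low levels.

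With the classes of a lineage weighted equally, 4 ratios lay on the other side of 1, which were *Pdgfb* (0.936) and *Pdgfc* (1.09) in myeloid cells at 4 dpf, *Pdgfc* in myeloid cells at 7 dpf (0.864) and *Pdgfa* in myeloid cells from 4 to 7 dpf in RA callus (1.14). With the looser cell filter, 4 did so, which were *Pdgfa* in cycling mesenchymal cells, RA to control at 4 dpf (0.738), and, from 4 to 7 dpf in control callus, *Pdgfc* (0.818) and *Pdgfd* (1.11) in mesenchymal cells and *Pdgfc* in committed mesenchymal progenitor-like cells (0.887). Without doublets the ratio of *Pdgfra* in mural-like cells at 7 dpf was 0.710. From 4 to 7 dpf, *Pdgfc* in myeloid cells was 1.93 in control and 1.63 in RA callus with classes weighted equally, and the *Pdgfd* ratio of RA to control in mural cells at 4 dpf was 1.69 with the looser filter.

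Other ratios of RA to control kept their side of 1 but moved by more than their counting interval. At 4 dpf the looser filter gave 0.896 for *Pdgfa* (here on the other side of 1 from a value whose interval spans it), 0.747 for *Pdgfc* and 1.21 for *Pdgfra* in mesenchymal cells, with a mean *Pdgfc* level of 90.5 CPM. TMM scaling gave 1.06 for *Pdgfra* and 1.53 for *Pdgfrb* there, equal weight of classes 1.03 for *Pdgfra* there and 0.831 for *Pdgfa* in myeloid cells, resolution 0.5 gave 0.840 for the latter, and equal weight of cells 1.00 for *Pdgfb* in myeloid cells. At 7 dpf equal weight of cells gave 0.677, 0.706 and 1.64 for *Pdgfa*, *Pdgfb* and *Pdgfc* in myeloid cells, and 0.767 for *Pdgfa* and 1.15 for *Pdgfrb* in mesenchymal cells. Equal weight of classes gave 0.832 for *Pdgfb* in blood endothelial cells and 0.798, 1.27, 1.22 and 1.18 for *Pdgfa*, *Pdgfd*, *Pdgfra* and *Pdgfrb* in mesenchymal cells. In mesenchymal cells the ratio of *Pdgfra* was 1.43 with the looser filter and 1.44 with TMM scaling, and that of *Pdgfrb* 1.13 with TMM scaling.

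The pairs past 1.5-fold at 4 dpf were 5 with the looser filter and 6 with a minimum of 10 UMIs. The mean share of *Pdgfra* UMIs in mesenchymal cells was 98.0% without doublets, 98.2% without integration and 97.7% at resolution 0.5. Cell shares rose with depth. As means over libraries, without thinning and at 10000 UMIs, they were 93.5% and 92.5% for *Pdgfa* and 97.9% and 96.0% for *Pdgfrb* in mural cells, 76.7% and 66.1% for *Pdgfb* and 52.4% and 41.1% for *Pdgfd* in blood endothelial cells, and 53.1% and 35.4% for *Pdgfc* and 89.6% and 80.8% for *Pdgfra* in mesenchymal cells. Ranked by Spearman's rho, 0 of the 5 genes most like *Pdgfrb* and 1 of those most like *Pdgfra* were shared with those named.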

Other observations

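Cells outside the 5 lineages held other PDGF transcripts. NK and T-like cells had 29.2 and 39.6 CPM of *Pdgfb* in control and RA callus at 4 dpf, and 38.1 and 39.9 CPM at 7 dpf. Schwann-like cells had 66.0 and 90.2 CPM of *Pdgfb* in control and RA callus at 4 dpf, and 77.3 and 58.6 CPM at 7 dpf. Both were above the mesenchymal level of *Pdgfb* in every library. In neutrophil-like cells *Pdgfd* was 1.07 and 4.02 CPM in control and RA callus at 4 dpf, and 23.9 and 23.4 CPM at 7 dpf, so both libraries of the later time lay above both of the earlier one. These levels rest on few UMIs. In control and RA callus there were 1 and 23 UMIs in 38 and 214 cells at 4 dpf. At 7 dpf there were 38 and 21 UMIs in 73 and 39 cells.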
